A study of Mus musculus with 5 samples.

Results

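The genes described here encode the ATP-binding cassette (ABC) proteins and the organic anion, cation and drug carriers of the Slco, Slc22a and Slc47a families in mouse liver. They were chosen by symbol alone: Abc followed by a letter from a to g and a number, with or without the paralog letter that 4 mouse symbols carry (Abca8a, Abca8b, Abcb1a and Abcb1b), or a symbol that starts with Slco, Slc22a or Slc47a. Of 18820 genes measured, 85 were members, namely 47 ABC genes, 15 Slco genes, 21 Slc22a genes and 2 Slc47a genes. One ABC gene with such a symbol was left out and is not analysed here. Each gene was read from 1 probe set, the one with the highest mean over the 5 arrays. All mice were adult C57Bl/6 animals given intraperitoneal injections of 300 µg, 3 a week for 6 weeks. The 3 control livers came from mice given rat IgG, and the 2 treated livers from mice given M279, an antibody against the receptor CSF1R. CSF1R carries the survival signal of macrophages and monocytes, and the question was what its blockade did to gene expression in the liver. The labels give no sex and do not say whether the samples came from separate animals, so each p reflects the spread of these arrays alone, which may be technical.

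ABC proteins use ATP to move lipids, drugs, conjugates and metals across membranes, although the E and F subfamilies have no membrane part and act on ribosomes. Slco and Slc22a proteins take organic anions, cations and carnitine into cells without ATP, and Slc47a proteins exchange organic cations for protons. In hepatocytes the uptake carriers lie on the side that faces the blood, and many ABC exporters lie on the canalicular side that faces the bile. Macrophages also use the cholesterol exporters Abca1 and Abcg1.

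The values were log2 intensities of whole liver RNA, and a difference is the mean of the treated arrays minus the mean of the controls. Median scale was similar between arrays, with median intensities of 32.5 to 33.9, but the upper quartile was 160 to 164 on the controls and 148 and 150 on the treated arrays. Hepatocyte markers such as Alb, Apoa1 and Ahsg were above the median gene level on every array, and the 9 of 10 measured had a median difference of -0.0056. Cholangiocyte markers, 6 of 8 measured, had a median difference of 0.10. In bulk tissue, fewer cells of a type and less RNA per cell cannot be told apart.

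In limma's two-sided test, adjusted over all 35556 probe sets, no member reached 0.05, and the share of all probe sets called was 0%. The smallest adjusted p among members was 0.201, for Abca1. Without adjustment, 8 of 85 members were higher and 13 lower at p under 0.05, against 9.91% higher and 8.4% lower over all genes. When limma was fitted to 1 probe set per gene, 0.0744% of genes passed and 0 members did, with a smallest member adjusted p of 0.0927. The members are therefore described by their values. A member's groups are called apart where both treated arrays lay above, or both below, all 3 controls, and the lowest p open to an exact permutation test of 2 and 3 arrays is 0.1. The median standard error (SE) of a member's difference was 0.128, and 83 of 85 members had a 95% interval, from limma and not adjusted for the number of genes, within a 2-fold change either way. The exceptions were Abca8b and Abcd2.

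In the values as deposited, the transporter genes as a whole moved with the level of their probe sets, as other genes did. Groups were apart and higher for 22 members and apart and lower for 18, where all genes gave 25.1% and 19.5%, or 25.9% and 21.2% of members. Among the 44 members at or above the median gene level, 4 were apart and higher and 15 apart and lower, or 9.09% and 34.1%, against 8.13% and 33.6% of all genes at those levels. Among the 41 dimmer members the order turned, with 18 apart and higher and 3 apart and lower, or 43.9% and 7.32%, against 42.1% and 5.43%. These shares lie near those of all genes, so they are not a result about transporters. The median difference was -0.16 for the brighter members and 0.16 for the dimmer ones, and -0.11 and 0.16 for all genes of those levels. After cyclic loess, which removes such a shift with level, 10 members were apart and higher and 15 apart and lower, so the higher share of those apart went from 55% to 40%, and that of all genes from 56.3% to 49.4%. After quantile normalization it was 46.4% for members and 56.2% for all genes. The median of the brighter members was -0.10 after cyclic loess and -0.12 after quantile normalization. That of all genes of their level was -0.02 after each. For dimmer members it was 0.02 and 0.04, against 0.02 and 0.05 for all dimmer genes. The brighter members thus kept more of their shift than other bright genes, and this gap was not tested.

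**Figure D1:**
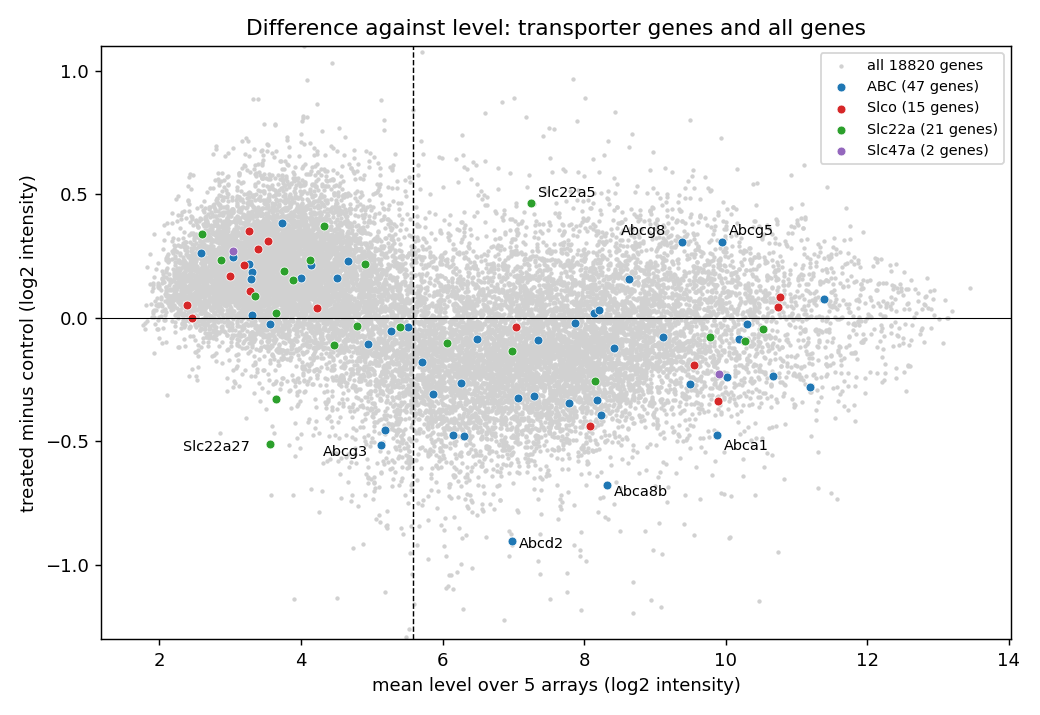
Difference between treated and control liver (vertical, log2 intensity) against mean level over the 5 arrays (horizontal, log2 intensity) for 85 transporter genes in colour by family and all 18820 genes in grey, with the median gene level as a dashed line. Dim genes lie mostly above 0 and brighter ones mostly below, members and others alike, while Slc22a5, Abcg5 and Abcg8 lie above most bright genes; 19 genes fall outside the vertical range.

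Brighter members that were apart and higher were few: Abcg5, Abcg8, Slc22a5 and Abcb6. Dim members that were apart and lower were also few, namely Abcc1, Abcg3 and Slc22a27. All 7 kept their groups apart in the same direction after cyclic loess and after quantile normalization. Both steps shift bright genes up and dim genes down. After cyclic loess the median of all bright genes went from -0.11 to -0.02 and that of dim genes from 0.16 to 0.02. The 7 were picked for lying on those sides, so staying apart was largely given and is no support for them. The 7 run against the direction most common at their level, and each is described below with its role.

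Abcg5 and Abcg8 encode the partners of one transporter, which exports cholesterol and plant sterols into bile. Abcg5 read 9.75, 9.88 and 9.84 on the controls and 10.21 and 10.05 on the treated arrays. Abcg8 read 9.22, 9.24 and 9.32 on the controls and 9.68 and 9.46 on the treated arrays. For both genes treated replicate 1 was the highest array, treated replicate 2 the next, and the groups did not overlap. The difference was 0.31 ± 0.11 (SE, 3 control and 2 treated arrays, limma adjusted p = 0.245) for Abcg5 and 0.31 ± 0.12 (adjusted p = 0.255) for Abcg8, or 1.24-fold for each. After cyclic loess they stood at 0.31 and 0.34. Without treated replicate 1 they were at 0.23 and 0.20, and without treated replicate 2 at 0.39 and 0.42.

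The genes lie head to head and share the short stretch between their starts, shown here because their values moved side by side. It spans 109 bases at chr17:84683012-84683120 on the plus strand of GRCm38.p6 (RefSeq), between the first base of Abcg5, read leftwards, and that of an Abcg8 transcript, read rightwards, so it is upstream of both and in no exon of these transcripts. Capitals mark the GATA motif AGATAA, here on the minus strand.
Abcg5-Abcg8 intergenic: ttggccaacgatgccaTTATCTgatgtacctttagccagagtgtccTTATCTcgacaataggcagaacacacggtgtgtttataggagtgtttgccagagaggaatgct
The motif occurs at bases 17 to 22 and 47 to 52 of the stretch. Searched on both strands of the 250 bases upstream of each start, AGATAA was held by 11.4% of 27025 genes and by 9 of the 70 members with an entry. These matches describe letters and say nothing of binding.

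Abca1 and Abcg1 export cholesterol to apolipoproteins and high density lipoprotein, and both lay lower in treated liver. Abca1 read 10.16, 9.97 and 10.05 on the controls and 9.71 and 9.46 on the treated arrays. Its difference of -0.48 ± 0.13 (adjusted p = 0.201) was 1.39-fold, and it stayed apart after cyclic loess, at -0.47. Abcg1 read 7.22, 7.30 and 7.08 on the controls against 6.79 and 6.96, a difference of -0.33 ± 0.12 (adjusted p = 0.251). Abcg1 overlapped between groups after cyclic loess, at -0.19. Abca1 was lowest on treated replicate 2 and Abcg1 on treated replicate 1. Of 8 macrophage markers, 7 lay lower in treated liver, with a median difference of -0.32 and 4 apart and lower, where 33.6% of all genes of that level were so. Of 8 Kupffer cell markers, 2 were higher and 6 lower, 1 apart and higher and 2 apart and lower, with a median of -0.44 on treated replicate 1 and 0.08 on treated replicate 2. Among them Marco, a scavenger receptor, was at 1.34 ± 0.17 and Cd163, a haemoglobin scavenger receptor, at -0.80 ± 0.16, both named after their values were seen. The summed intensity of the macrophage list was 3316 to 3718 on the controls, 2544 on treated replicate 1 and 3350 on treated replicate 2, and none was at 0. The part of these cells in the values of Abca1 and Abcg1 was not tested.

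The 150 bases upstream of Abca1 are shown because the nuclear receptor LXR is known to act on this gene through an element there. They lie at chr4:53159896-53160045, minus strand, GRCm38.p6 (RefSeq), and end just before the first transcribed base. Capitals mark an E-box, CACGTG, and the stretch that matches, on the other strand, GGTTAC and GGTCA with 4 bases of any kind between them, and these do not overlap.
Abca1 upstream: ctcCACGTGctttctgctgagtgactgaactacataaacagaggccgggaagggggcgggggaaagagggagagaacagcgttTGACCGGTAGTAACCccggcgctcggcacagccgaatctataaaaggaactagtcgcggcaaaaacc
The longer element ends 53 bases before the start. Its letters were written for this promoter, so its match there was given, and 9 of 27025 genes (0.0333%) held it. The E-box was held by 6.86% of genes and by 7 of 70 members. Direct repeats of AGGTCA, the idealised motif of nuclear receptors, were found in 0.0148% of genes with 4 bases between the copies and in 0.0407% with 1 base, and in 0 of 70 members. Nr1h3, which encodes LXR alpha, stood at 0.16 ± 0.16, and its groups overlapped.

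The list of sterol and phospholipid exporters had 7 measured genes, of which 3 were apart and higher and 3 apart and lower. Of the 7, 6 lie at or above the median gene level, where 8.13% of all genes were apart and higher and 33.6% apart and lower. Abca7, a lipid exporter of many cell types, was at -0.31 ± 0.10 with groups apart, also after cyclic loess (-0.21). The dim Abcg4, a relative of Abcg1, was at 0.21 ± 0.12 and apart and higher, as 42.1% of all dim genes were. Abcg4 overlapped between groups after cyclic loess (0.08). Abcb4, the floppase that supplies phosphatidylcholine to bile, read 10.29, 10.36 and 10.30 on the controls and 10.51 and 10.08 on the treated arrays. The treated values of Abcb4 lay on opposite sides of all controls, and the difference was -0.02 (95% interval -0.39 to 0.34).

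**Figure D2:**
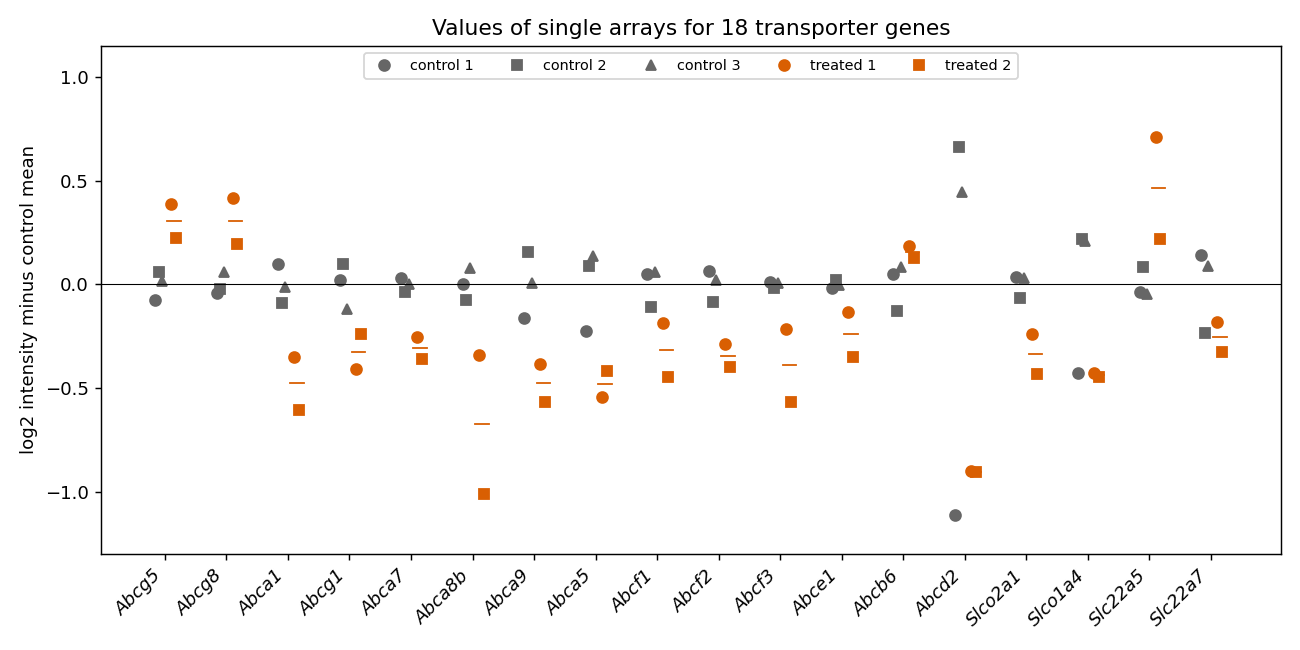
Log2 intensity of each array minus the control mean (vertical) for 18 members chosen after their values were seen; grey symbols are the 3 controls, orange symbols the 2 treated arrays and the short line their mean. Both treated arrays lie above all controls for Abcg5, Abcg8, Abcb6 and Slc22a5, and one control lies with the treated arrays for Abcd2 and Slco1a4.

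Of the 5 genes for drug and conjugate efflux into bile, 2 were apart and lower and 3 overlapped. Of the 5, 4 lie at or above the median gene level, where 33.6% of all genes were apart and lower, so the count is near the background. Abcc2, the canalicular exporter of bilirubin glucuronides, read 11.34, 11.37 and 11.39 on the controls and 11.58 and 11.31 on the treated arrays. Its difference was 0.08, with a 95% interval of -0.22 to 0.37, and its sign turned without treated replicate 1 (-0.06). Abcg2, which exports urate and many drugs, was at -0.33 ± 0.15 (adjusted p = 0.299), with treated arrays at 8.16 and 7.80 against controls of 8.16 to 8.40. Treated replicate 1 lay just below the lowest control, and the groups overlapped after cyclic loess. Slc47a1, a proton-driven exporter of organic cations, was at -0.23 ± 0.13, from 9.90, 9.96 and 10.13 to 9.86 and 9.68, and stayed apart after cyclic loess (-0.22).

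The P-glycoprotein genes, whose products pump many drugs out of cells, did not share a direction. Abcb1a read 5.59 to 6.01 on the controls and 5.77 and 5.42 on the treated arrays, a difference of -0.18 ± 0.18. Abcb1b read 4.48 to 4.74 on the controls and 4.97 and 4.64 on the treated arrays, a difference of 0.23 ± 0.15. Groups overlapped for both.

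Among 7 multidrug resistance proteins of other membranes, Abcc1 was apart and lower and Abcc12 apart and higher. Both lie below the median gene level, where 42.1% of all genes were apart and higher and 5.43% apart and lower. Abcc1, an exporter of glutathione conjugates, read 5.24, 5.51 and 5.34 on the controls and 4.64 and 5.18 on the treated arrays. Its difference of -0.45 ± 0.19 (adjusted p = 0.271) was -0.19 without treated replicate 1 and -0.72 without treated replicate 2. Abcc12 was dim, at 3.48 to 3.68 on the controls and 3.88 and 4.05 on the treated arrays. The exporters of conjugates into blood, Abcc3 (-0.24 ± 0.15) and Abcc4 (-0.04 ± 0.19), overlapped between groups. Abcc6, whose loss causes ectopic mineralisation, was at -0.27 ± 0.19 and overlapped too. All 3 had 95% intervals that included 0. The sulfonylurea receptor genes Abcc8 and Abcc9, regulatory parts of potassium channels, stood at 0.16 ± 0.11 and 0.03 ± 0.11.

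Abca5, Abca6, Abca8a, Abca8b and Abca9 form a row of neighbouring genes with no other coding gene between them in RefSeq order. Along it, lower mean differences alternated with ones near 0. All lie at or above the median gene level, where 33.6% of all genes were apart and lower, and 20.1% after cyclic loess. Abca8b, a lipid transporter of liver, read 8.59, 8.51 and 8.66 on the controls and 8.25 and 7.58 on the treated arrays. Its difference of -0.68 ± 0.21 (adjusted p = 0.214, 1.60-fold) was the lowest among members whose groups were apart. It was -0.34 without treated replicate 2 and -1.01 without treated replicate 1. Abca9 read 6.17, 6.49 and 6.34 against 5.95 and 5.76, a difference of -0.48 ± 0.14 (adjusted p = 0.208). Abca5, found in lysosomes, read 6.27, 6.58 and 6.63 against 5.95 and 6.08, a difference of -0.48 ± 0.15 (adjusted p = 0.215). These 3 genes stayed apart and lower after cyclic loess, at -0.59, -0.36 and -0.35. Abca8a (-0.08 ± 0.15) and Abca6 (-0.09 ± 0.12) lie between them in the row and overlapped between groups. For both, treated replicate 1 lay among the controls and treated replicate 2 below all of them. Against the control mean, treated replicate 2 was at -0.25 for Abca8a and -0.22 for Abca6. Whether neighbours differ from each other was not tested.

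**Figure D3:**
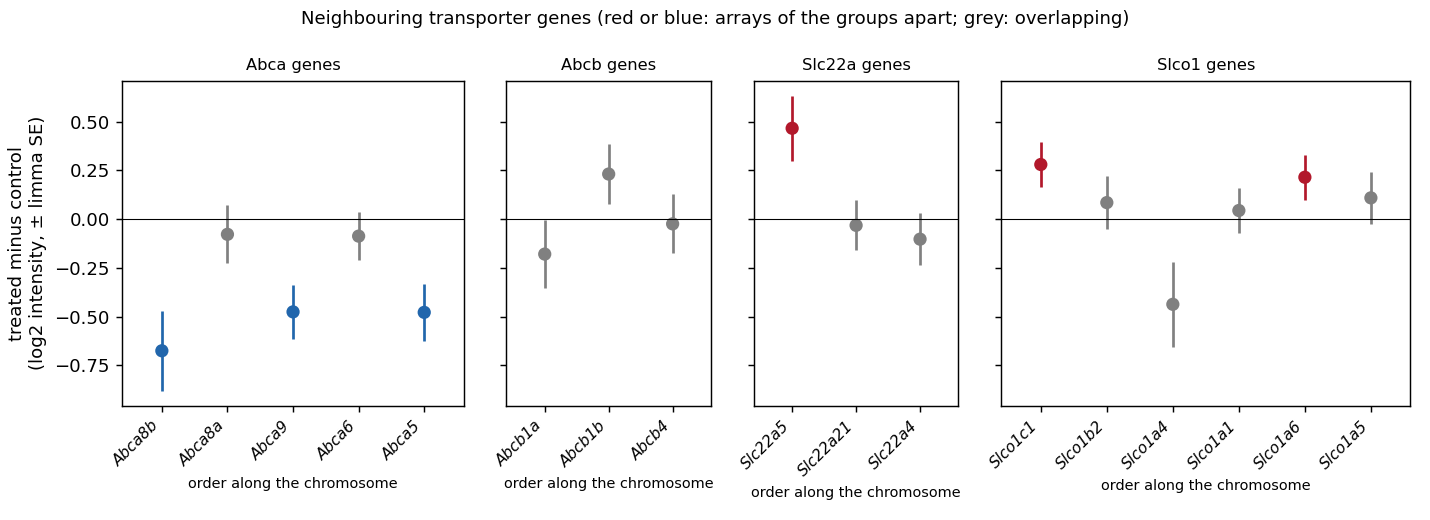
Treated minus control difference (vertical, log2 intensity, point) with limma SE (line) for 4 sets of neighbouring members in their order along the chromosome, red or blue where groups were apart and grey where they overlapped. Abca8b, Abca9 and Abca5 lie near -0.5 or lower with Abca8a and Abca6 near 0 between them, and Slc22a5 at 0.47 stands beside Slc22a21 and Slc22a4 near 0.

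The soluble ABC proteins, which act on ribosomes and translation, all had lower values, with all 4 apart and a median of -0.33. Abcf1, which takes part in initiation, read 7.47, 7.32 and 7.49 on the controls and 7.24 and 6.98 on the treated arrays, a difference of -0.32 ± 0.13. Abcf2 read 7.99, 7.83 and 7.94 against 7.63 and 7.52, a difference of -0.34 ± 0.11 (adjusted p = 0.222). Abcf3 read 8.40, 8.37 and 8.40 against 8.17 and 7.83, a difference of -0.39 ± 0.13 (adjusted p = 0.233). Abce1, the ribosome recycling factor, read 10.11, 10.14 and 10.12 against 9.99 and 9.77, a difference of -0.24 ± 0.11 (adjusted p = 0.308). In each of the 4, treated replicate 2 was the lowest array. All 4 lie at or above the median gene level, where 33.6% of genes were apart and lower. After cyclic loess Abcf1 (-0.19) overlapped and Abcf2 (-0.23), Abcf3 (-0.30) and Abce1 (-0.24) stayed apart.

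Mitochondrial ABC genes, 3 of 4 measured, gave Abcb6 apart and higher and the rest overlapping. All 3 lie at or above the median gene level, where 8.13% of all genes were apart and higher. Abcb6, a porphyrin transporter, read 8.62, 8.44 and 8.65 on the controls and 8.75 and 8.69 on the treated arrays, a difference of 0.16 ± 0.12 that was little over 1 SE. Abcb8 (-0.09 ± 0.13) and Abcb10 (-0.02 ± 0.11), which serve iron and haem metabolism, lay near 0.

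Peroxisomal ABC proteins bring fatty acyl-CoA into peroxisomes, and 2 of 3 were measured. Abcd2, which carries very long chain fatty acids, had the largest difference of any member, -0.90 ± 0.52, but its groups overlapped. It read 6.23, 8.0 and 7.78 on the controls and 6.43 on both treated arrays. Control replicate 1 lay below the treated arrays, and without it the difference was -1.46, with an adjusted p of 0.253 over all probe sets. It was -0.57 without control replicate 2 and -0.68 without control replicate 3. Abcd3, the main peroxisomal membrane protein of liver, was at -0.28 ± 0.19 and read 11.32 and 10.73 on the treated arrays against 11.18 to 11.39. Treated replicate 1 lay among the controls, and without treated replicate 2 the value was 0.02. Abcd4, a cobalamin carrier of lysosomes, was at -0.26 ± 0.12 with groups apart, and overlapped after cyclic loess. The lysosomal list, 4 of 4 lower with 2 apart, had a median of -0.19; 3 of the 4 lie at or above the median gene level, where 6293 of 9410 genes were lower and 33.6% apart and lower.

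The Slco1 genes, uptake carriers that lie in one neighbourhood, had a median difference of 0.10 over 6 genes. Of the 6, 3 were dim, namely Slco1a5 (0.11), Slco1a6 (0.21) and Slco1c1 (0.28), and the median over all dim genes was 0.16. Slco1b2, the main hepatic carrier of bilirubin and statins, read 10.77, 10.66 and 10.78 on the controls and 10.99 and 10.66 on the treated arrays, a difference of 0.08 (95% interval -0.24 to 0.41). Slco1a1, a carrier of steroid conjugates that males express more, was at 0.04 (95% interval -0.23 to 0.32). Slco1a4, a carrier of digoxin induced by xenobiotics, read 7.84, 8.48 and 8.47 on the controls and 7.84 and 7.82 on the treated arrays. Control replicate 1 lay between the treated arrays, and the difference was -0.44 ± 0.22 (adjusted p = 0.325), or -0.65 without that control.

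Of 6 other Slco genes, Slco2a1 was apart and lower and Slco5a1 apart and higher. At the level of the bright Slco2a1, 33.6% of all genes were apart and lower. At that of the dim Slco5a1, 42.1% were apart and higher. Slco2a1, the prostaglandin transporter, which endothelium makes, read 10.06, 9.96 and 10.06 on the controls and 9.79 and 9.59 on the treated arrays. Its difference was -0.34 ± 0.11 (adjusted p = 0.232), and -0.33 after cyclic loess, with groups still apart. Markers of sinusoidal endothelium had a median of -0.12 over 8 genes, 3 higher and 5 lower, with a summed intensity of 4253 to 4471 on the controls and 4722 and 4474 on the treated arrays. Without Clec4g, which was apart and higher at 0.31 ± 0.10, the other 7 summed to 2595 to 2730 on the controls and 2649 and 2368 on the treated arrays. The part of these cells in the value of Slco2a1 was not tested. Slco2b1, an uptake carrier of steroid sulfates, was at -0.19 ± 0.14, and -0.0042 without treated replicate 2.

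Carnitine carriers differed among themselves. Slc22a5, the high-affinity carnitine transporter that supplies fatty acid oxidation, read 7.03, 7.15 and 7.02 on the controls and 7.78 and 7.29 on the treated arrays. Its difference of 0.47 ± 0.17 (adjusted p = 0.238, 1.38-fold) was the highest among members, and 0.60 after cyclic loess. It was 0.22 without treated replicate 1 and 0.71 without treated replicate 2. Its neighbours Slc22a21, a second carnitine carrier (-0.03 ± 0.13), and Slc22a4, the ergothioneine carrier (-0.10 ± 0.13), overlapped between groups. Ppara, the receptor that drives fatty acid oxidation genes, read 9.85 to 9.90 on the controls and 10.20 and 9.94 on the treated arrays. Its difference was 0.19 ± 0.12, and 0.06 without treated replicate 1. A link between Ppara and Slc22a5 was not tested.

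Organic anion carriers, 11 of 13 measured, gave 4 apart and higher and 1 apart and lower. Of the 11, 9 lay below the median gene level, where 42.1% of all genes were apart and higher, so the count is near the background. Slc22a7, the hepatic carrier of this group, read 8.40, 8.02 and 8.34 on the controls and 8.07 and 7.92 on the treated arrays, a difference of -0.25 ± 0.15 with overlap at control replicate 2. Slc22a30 (-0.09 ± 0.19), the other brighter gene of the list, overlapped between groups. Slc22a18 (-0.05 ± 0.10), outside the list, was apart and lower by less than 1 SE. The kidney carriers Slc22a6 (0.37 ± 0.16) and Slc22a8 (0.23 ± 0.13) were dim and apart and higher. Slc22a19 (0.34 ± 0.11, adjusted p = 0.227) was dim too and apart and higher. After cyclic loess Slc22a6 (0.25) and Slc22a8 (0.10) overlapped, while Slc22a19 stayed apart at 0.16. Without treated replicate 1 Slc22a6 was at 0.20 and Slc22a8 at 0.0864. Markers of kidney tubule were dim and higher in 6 of 6, with a median of 0.26 and a summed intensity of 89.0 to 101 on the controls and 118 and 113 on the treated arrays. Among all dim genes 7473 of 9410 were higher, with a median of 0.16, and 5 of 5 pancreas markers (median 0.31) and 5 of 5 adipocyte markers (median 0.17) were higher too. The part of kidney RNA in the dim carriers was not tested. Slc22a27 went the other way, from 3.55, 3.90 and 3.83 to 3.51 and 3.00, a difference of -0.51 ± 0.19 (adjusted p = 0.252) that was -0.25 without treated replicate 2.

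The other dim members apart and higher included Slco5a1 (0.35 ± 0.11, adjusted p = 0.213), Slco6c1 (0.31 ± 0.10, adjusted p = 0.221), Slco1c1 (0.28 ± 0.12), Slc47a2 (0.27 ± 0.12) and Abca16 (0.26 ± 0.10). Their control means ran from 2.48 to 3.41, below the median gene level of 5.59, and 42.1% of all dim genes were apart and higher. After cyclic loess Slco5a1 (0.18), Slco6c1 (0.15) and Abca16 (0.0851) stayed apart at smaller values, and Slco1c1 (0.11) and Slc47a2 (0.0987) overlapped. Abcg3, a rodent relative of Abcg2, read 5.23, 5.54 and 5.25 on the controls and 4.65 and 5.0 on the treated arrays. Its difference of -0.51 ± 0.16 (adjusted p = 0.22) stayed at -0.51 after cyclic loess and was -0.34 without treated replicate 1.

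**Figure D4:**
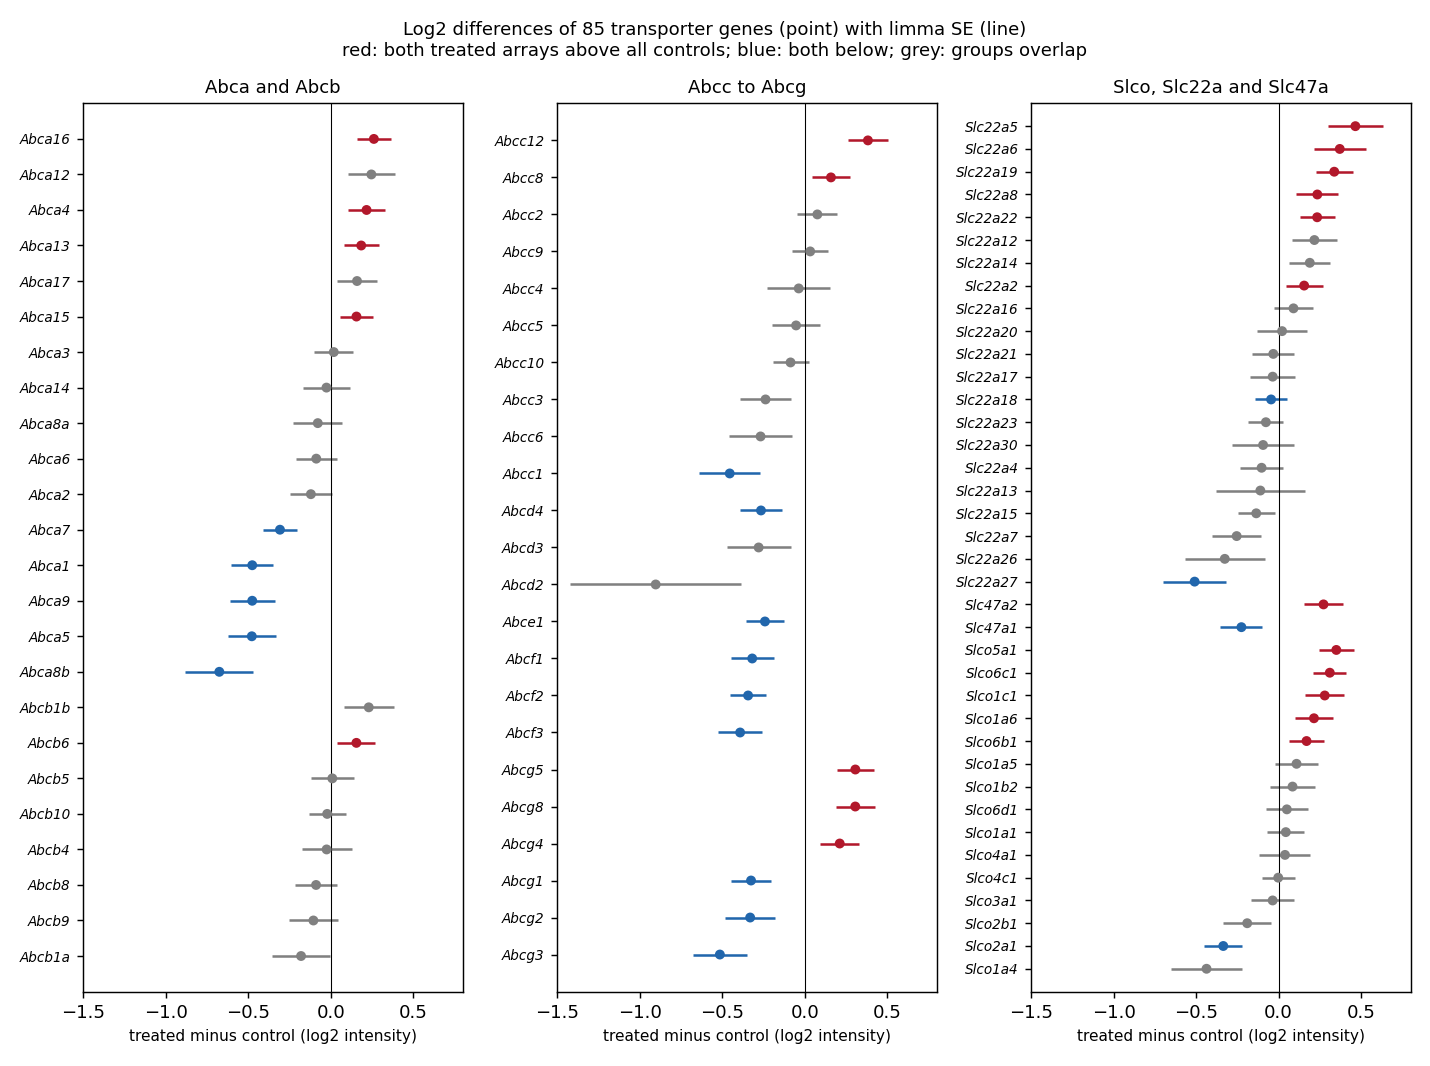
Treated minus control difference (horizontal, log2 intensity, point) with limma SE (line) for all 85 members by family; red marks both treated arrays above all controls, blue both below, and grey overlap. Groups were apart for 22 higher and 18 lower members, the 4 Abce and Abcf genes all lie below 0, and the widest line belongs to Abcd2.

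Regulators of these genes were measured for 12 of 15 listed, with 2 apart and higher, 2 apart and lower and a median of 0.05, and 0 passed the test. All 12 lie at or above the median gene level, where 8.13% of genes were apart and higher and 33.6% apart and lower. Arnt, the dimer partner of the dioxin receptor, read 9.45, 9.40 and 9.49 on the controls and 9.15 and 8.82 on the treated arrays, a difference of -0.46 ± 0.13 (adjusted p = 0.207). Nr0b2, the bile acid induced repressor SHP, was at 0.52 ± 0.23, with control replicate 1 (9.71) among the treated values of 9.65 and 10.07. Nr1i2, the xenobiotic receptor PXR, was at 0.16 ± 0.12 and overlapped.

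Of 13 other carriers and partners, 2 were apart and higher and 5 apart and lower, and 0 passed. Of the 13, 10 lie at or above the median gene level, where 33.6% of all genes were apart and lower. One of the 5 lower genes, Slc51b, is dim, and 5.43% of all dim genes were apart and lower. Slc10a2, the sodium-driven bile acid carrier of ileum and bile ducts, read 8.13, 8.07 and 7.73 on the controls and 7.23 and 6.44 on the treated arrays. Its difference of -1.14 ± 0.26 (adjusted p = 0.192) was larger than that of any member and was -0.74 without treated replicate 2. Slc51a, a subunit of the basolateral bile acid exporter, was dim and at 0.52 ± 0.16, from 4.31, 4.12 and 3.94 to 4.80 and 4.48. It was apart and higher, as 42.1% of all dim genes were. Slc51b, the other subunit, went the other way, from 5.32, 5.10 and 5.35 to 4.99 and 5.08. Its difference was -0.22 ± 0.12, with groups apart. Of 6 cholangiocyte markers 4 were higher and 2 lower, with a summed intensity of 808 to 888 on the controls and 987 and 958 on the treated arrays. Without Aqp1, a water channel at 0.33 ± 0.12, the other 5 summed to 259 to 285 on the controls and 278.7 and 203 on the treated arrays. Sox9, a transcription factor of bile duct cells, had the smallest p of the list and was apart and lower at -0.51 ± 0.15. The bile duct keratins Krt7 and Krt19 stood at -0.05 ± 0.29 and 0.20 ± 0.26, and treated replicate 1 was above and treated replicate 2 below all controls for both. The part of bile duct cells in the value of Slc10a2 was not tested. The bile acid uptake carrier Slc10a1 was at 0.04 ± 0.10. Tap1 and Tap2 are ABC proteins outside the symbol rule that load peptides for antigen presentation. Tap1 read 7.47, 7.90 and 7.68 on the controls against 7.33 and 7.12, a difference of -0.46 ± 0.16 (adjusted p = 0.235), and Tap2 was at -0.28 ± 0.15. Atp8b1, the phospholipid flippase of the canalicular membrane, was at -0.34 ± 0.11 (adjusted p = 0.222), and the groups of all 3 were apart.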

How the data were processed

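Per the labels' protocols, liver RNA of 5 samples went through NuGEN Pico SL amplification and Encore biotin labelling. The deposited table holds linear intensity values, 1 column per array for 35556 probe sets. The submitters' processing notes name Affymetrix Expression Console 1.1. How values were summarised and normalized is not given in the sources used here. A method that draws arrays together can hide shared shifts, and one that does not can leave shifts with level.

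Log2 was taken with no pseudocount or filter. Probe sets were named through GEO's platform annotation: 21218 had 1 symbol, 1881 several and 12457 were unlisted. All 85 members matched a symbol in RefSeq's GRCm38.p6 table. The groups were compared by lmFit and eBayes of limma 3.58.1 (R 4.3.3), which had 3 residual and 3.03 prior degrees of freedom. P-values were adjusted by Benjamini and Hochberg's method across all probe sets, with 0.05 as the threshold. The number of arrays limits the precision. The fit was tested on simulated data. Figures were drawn with matplotlib 3.10.9.

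The named genes are the 10 members of smallest p in each direction among those with groups apart, a list of hepatocyte carriers, and the 2 genes of smallest p in each role or pathway list. Other members, and the markers, were named after their values were seen. Members and lists were chosen with earlier results of these data known. Promoter letters came from RefSeq's GRCm38.p6 starts, where 70 members had an entry, and motifs were searched on both strands. The alternatives were quantile normalization, median centring, cyclic loess, a pseudocount of 16, a filter on dim probe sets, 1 probe set or the mean of all probe sets per gene, other variance models, weighted arrays, a replicate block, leaving out each array, and symbols without paralog letters. The split by level was added after the data were seen.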

Additional observations from a re-analysis of the deposited data

How the results depend on the processing

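No member passed under any alternative run. Counts of members apart and higher fell from 22 to 13 after quantile normalization and 10 after cyclic loess. With dim probe sets left out, 4 of the 49 members kept were so. The share of members went from 25.9% to 15.3%, 11.8% and 8.16% in turn. That of all genes went from 25.1% to 19.0%, 16.6% and 8.64%. Leaving out 1 array, members apart numbered 24 to 31 higher and 21 to 34 lower, the last without treated replicate 1. Fewer arrays overlap less often: all genes then gave 29.9% to 40.5% higher and 22.5% to 31.2% lower. Members gave 28.2% to 36.5% higher and 24.7% to 40% lower. Without treated replicate 1, 40% of members were apart and lower against 31.2% of all genes. At or above the median gene level these shares were 70.5% and 49.8%. With 1 treated array left, this gap rests on treated replicate 2 alone and was not tested. The median over all members, -0.03, was 0.0056 with median centring, -0.14 without dim probe sets and -0.0450 to 0.0111 with 1 array left out. That of all genes, 0.04, was 0.02 with quantile normalization, 0.08 with median centring, -0.0010 with cyclic loess and -0.10 without dim probe sets. That of ABC genes, -0.09, was -0.24 without dim probe sets and -0.13 to -0.0229 with 1 array left out. That of Slc22a genes, -0.03, was -0.0855 without dim probe sets and -0.0412 to 0.0527 with 1 array left out, and that of Slc47a genes -0.23 without dim probe sets. The Slco median of 0.05 was -0.0116 with quantile normalization, 0.0878 with median centring, -0.0047 with cyclic loess, -0.11 without dim probe sets, 0.0776 with array weights, 0.0716 with the replicate block and 0.0552 to 0.0962 with 1 array left out. The cause was not tested, except that leaving out dim probe sets leaves fewer members (49). Of 49 named genes, 40 kept their sign under every alternative run. Many were named because their groups were apart, and such a gene cannot change sign when 1 array is left out. Some alternatives, such as 1 probe set per gene, also leave each difference as it was. The count is therefore no measure of stability. Signs turned for Abcb4 (0.0132 with median centring), Abcb8 (0.0381 with quantile normalization, 0.0399 with cyclic loess), Abcc4 (0.0763, 0.0020 and 0.0182 with quantile normalization, median centring and cyclic loess), Slc22a4 (0.0406 and 0.0068 with quantile normalization and cyclic loess) and Slco1a1 (-0.0116 with quantile normalization). With 1 array left out the ranges were -0.24 to 0.19 for Abcb4, -0.22 to 0.0444 for Abcb8, -0.0577 to 0.21 for Abcc2, -0.18 to 0.11 for Abcc4, -0.0229 to 0.0905 for Abcc9, -0.58 to 0.0191 for Abcd3, -0.25 to 0.0455 for Slc22a4, -0.0450 to 0.13 for Slco1a1 and -0.0788 to 0.25 for Slco1b2. Replicate numbers 1 and 2 occur in both groups, but the labels state no pairing, so the numbers were not taken as one. Deviations of same-numbered arrays correlated at 0.0268 and 0.0325. The deviations of 2 treated arrays from their mean mirror each other, so these values cannot decide whether arrays were paired. The replicate block changed no call. Background correction could not be redone from summarised values. A fit with 1 treated array takes its spread from the controls.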

Other observations

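Probe sets outside the member rule gave values for some of the same genes. A second probe set of Abcb5, a dim relative of the P-glycoproteins, was at 0.35 ± 0.12 with groups apart, against 0.01 ± 0.13 for the brighter one. A second, dimmer probe set of Abce1 was at -0.02 ± 0.14, against -0.24 ± 0.11 for the brighter one. Probe sets that carry 2 symbols cannot be given to 1 gene: the bright one of Slc22a28 and Slc22a30 was at -0.06 ± 0.15, that of Slc22a29 and Slc22a30 at -0.05 ± 0.15, and that of Slc22a13 and Slc22a13b at 0.08 ± 0.22. Groups overlapped for all of these but the one of Abcb5.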
